A study of Mus musculus with 8 samples.

Results

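The small proline-rich genes (Sprr) encode short proteins of the cornified envelope, the protein shell of terminally differentiated keratinocytes. The 9 genes Sprr1a, Sprr1b, Sprr2b, Sprr2d, Sprr2f, Sprr2h, Sprr2i, Sprr2k and Sprr3 were taken by symbol from the array annotation. A probe set of a single gene was found for 8 of them, among 17097 genes measured. Sprr2b had no probe set under its symbol and was not analysed here, apart from its promoter. Sprr2a1 and the transcribed pseudogene Sprr2j-ps lie in the same cluster, were measured too, and are given beside the family.

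The study followed mouse skin squamous cell carcinoma (SCC), a keratinocyte cancer, as serially grafted tumours passed to a poorly differentiated stage (PD-SCC, written PD/S-SCC in the sample titles) from a well differentiated one (WD-SCC). The tumours arose in K14-HPV16 mice of the FVB/C57/Bl6 strain, either spontaneously or after DMBA-TPA, a chemical carcinogen followed by a growth promoter. In those mice the keratin 14 promoter drives papillomavirus genes in basal keratinocytes. Both stages were grown in the skin of nude mice. Cells of both stages were depleted of haematopoietic and endothelial cells and sorted for CD34 and α6-integrin, which the design text uses as marks of cancer stem cells. PD-SCC and WD-SCC had 4 arrays each, from 3 tumour lineages. OT7 gave 2 arrays per stage, and OT14 and OT15 gave 1 each. The labels leave unsaid whether separate tumours gave the OT7 arrays of a stage, and which lineages were chemically induced. The p-values therefore measure only the spread between these samples, part of which may be technical.

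SPRR proteins are joined to loricrin, involucrin and one another by transglutaminases, and so act as cross-bridges of the envelope. Their genes sit in the epidermal differentiation complex, next to the genes of loricrin and involucrin. In normal epidermis they are expressed in the layers above the basal layer, and many of them are induced in stressed, wounded or hyperplastic skin. SPRR1 and SPRR2 proteins are best known from stratified and squamous epithelia, and SPRR3 from the lining of the mouth and oesophagus.

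The promoters are shown first. The Sprr2 family genes share an arrangement of motifs that Sprr1 and Sprr3 genes do not have, and its part in the Sprr values was not tested. The windows are the 250 bases before the annotated gene start, written 5′ to 3′ on the gene's own strand, from the RefSeq annotation of build GRCm38.p6. All 9 family genes had a window. The printed ones are Sprr1a (chr3:92485882-92486131, minus strand), Sprr1b (chr3:92438780-92439029, minus strand), Sprr2d (chr3:92338890-92339139, plus strand), Sprr2k (chr3:92432332-92432581, plus strand) and Sprr3 (chr3:92458721-92458970, minus strand). Sprr2d and Sprr2k stand for the Sprr2 genes, Sprr2d with 1 AP-1 match and Sprr2k with 2. Capitals mark 3 motifs: TGANTCA (N is any base), used here for the site of AP-1 (dimers of Fos and Jun proteins), ATTTGCAT, the octamer of POU-domain factors, and TATAAA, the TATA box.
Sprr1a: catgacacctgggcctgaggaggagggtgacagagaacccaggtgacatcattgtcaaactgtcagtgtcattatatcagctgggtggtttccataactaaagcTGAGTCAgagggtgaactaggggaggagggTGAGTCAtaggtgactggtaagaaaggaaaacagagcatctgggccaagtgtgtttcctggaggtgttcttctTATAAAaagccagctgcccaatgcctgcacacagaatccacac
Sprr1b: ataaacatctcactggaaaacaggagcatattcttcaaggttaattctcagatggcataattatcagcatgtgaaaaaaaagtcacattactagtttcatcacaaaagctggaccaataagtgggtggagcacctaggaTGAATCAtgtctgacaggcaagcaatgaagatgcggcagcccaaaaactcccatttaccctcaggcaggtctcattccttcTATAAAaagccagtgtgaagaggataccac
Sprr2d: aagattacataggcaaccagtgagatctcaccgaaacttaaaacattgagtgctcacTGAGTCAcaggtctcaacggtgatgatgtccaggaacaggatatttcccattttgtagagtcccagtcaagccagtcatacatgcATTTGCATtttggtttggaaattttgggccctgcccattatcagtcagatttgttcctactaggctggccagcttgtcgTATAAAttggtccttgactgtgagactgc
Sprr2k: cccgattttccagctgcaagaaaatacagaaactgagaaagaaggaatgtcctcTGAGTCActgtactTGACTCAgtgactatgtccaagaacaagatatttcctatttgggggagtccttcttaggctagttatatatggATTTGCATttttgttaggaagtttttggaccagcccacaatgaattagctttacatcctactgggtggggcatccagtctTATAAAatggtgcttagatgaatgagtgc
Sprr3: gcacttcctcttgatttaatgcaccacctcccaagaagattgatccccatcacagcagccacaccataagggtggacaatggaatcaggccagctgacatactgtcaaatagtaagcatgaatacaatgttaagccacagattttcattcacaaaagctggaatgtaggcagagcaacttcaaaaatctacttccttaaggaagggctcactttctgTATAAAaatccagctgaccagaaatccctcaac

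Both strands were searched. The AP-1 motif was found in 8 of 9 family windows, against 6.75% of 32851 windows of the same length over all genes, and Sprr3 was the window without it. The Sprr1b match read TGAATCA and so rests on the open base, while the other family matches read TGAGTCA or TGACTCA. The octamer was in 6 of 9 family windows, which were the 6 Sprr2 genes, against 1.6% of all windows. TATAAA was in 9 of 9, against 12.4%. The short ETS core GGAA, bound by ETS factors such as Elf3 and Ehf, was in 9 of 9 windows but also in 93.4% of all windows, so its presence distinguishes little. The first 3 motifs stood together in 14 of 32851 windows (0.0426%), and 7 of these 14 were Sprr genes, namely the 6 Sprr2 family genes and Sprr2e. The combination was chosen with the sequences in view. The Sprr2 windows are alike in sequence, as given below, so they are not independent counts of a motif. None of the 3 motifs was in the window of Sprr2a1.

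In the 6 Sprr2 windows the octamer began at position -112 to -108, and TATAAA at position -29 in each, counted from -1 at the last base before the gene start. After global alignment, Sprr2 windows were identical at 61.2% to 81.2% of positions (median 66.0%, 15 pairs), with Sprr2h and Sprr2k the most alike. The other 21 pairs of family windows were identical at 47.2% to 58.0%. These matches describe the letters in a window and do not show that a factor was bound there.

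**Figure D1:**
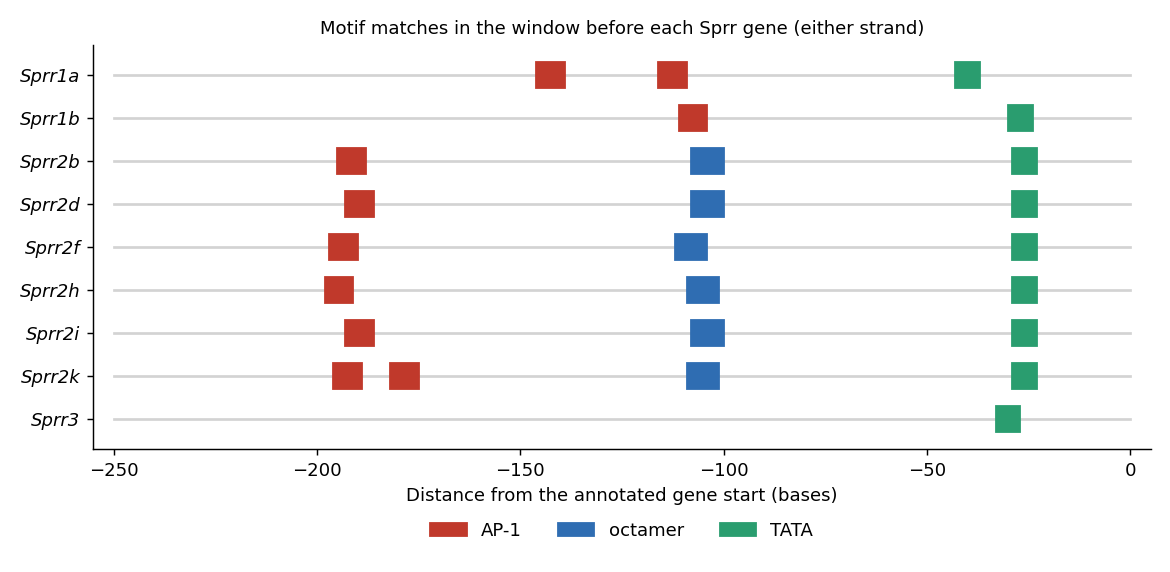
Matches of 3 motifs on either strand in the 250 bases before each family gene, plotted by distance from the annotated gene start in bases (AP-1 red, octamer blue, TATA green). The 6 Sprr2 windows hold all 3 motifs in the same order, and Sprr3 holds TATA only.

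Values are log2 units, made by the submitters with RMA, and differences are PD-SCC minus WD-SCC. The highest of 15 bacterial control probe sets without a spike served as a detection limit for each array. It averaged 3.69 on the PD-SCC arrays and 4.11 on the WD-SCC arrays. Nonspecific probe sets of probes with 25 G or C bases averaged 6.94 ± 0.19 on PD-SCC arrays and 8.39 ± 0.26 on WD-SCC arrays (SD, n = 4 each), so background binding was also brighter in WD-SCC, and its part in the results was not tested. The OT15 WD-SCC array stood apart. Its Cd34 value was 3.58, under that array's control at 4.37, although its cells were sorted for CD34, and its Itga6 value of 5.32 was the lowest of the 8 arrays. Family results are therefore also given without it. Because lineage is a block in the fit, leaving out that array takes lineage OT15 out of the stage effect, which then rests on OT7 and OT14.

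All 8 measured family genes fell in PD-SCC (limma with lineage as a block, Benjamini-Hochberg adjusted p under 0.05), and none rose. Over all genes 4.81% fell and 7.78% rose, which is 823 against 1331 genes. That split depends on the scaling: 933 fell and 794 rose after cyclic loess, and 1207 fell and 1149 rose after scaling to the 75th percentile. The family's median difference was -6.10, between -8.16 and -3.52, against -0.06 for all genes. With values under the control raised to it, the family's median was -5.81. In 8 of 8 genes every PD-SCC array lay under every WD-SCC array, as in 13.3% of all genes. These were sorted cell populations measured in bulk, so fewer Sprr-expressing cells and less Sprr RNA per cell cannot be told apart.

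**Figure D2:**
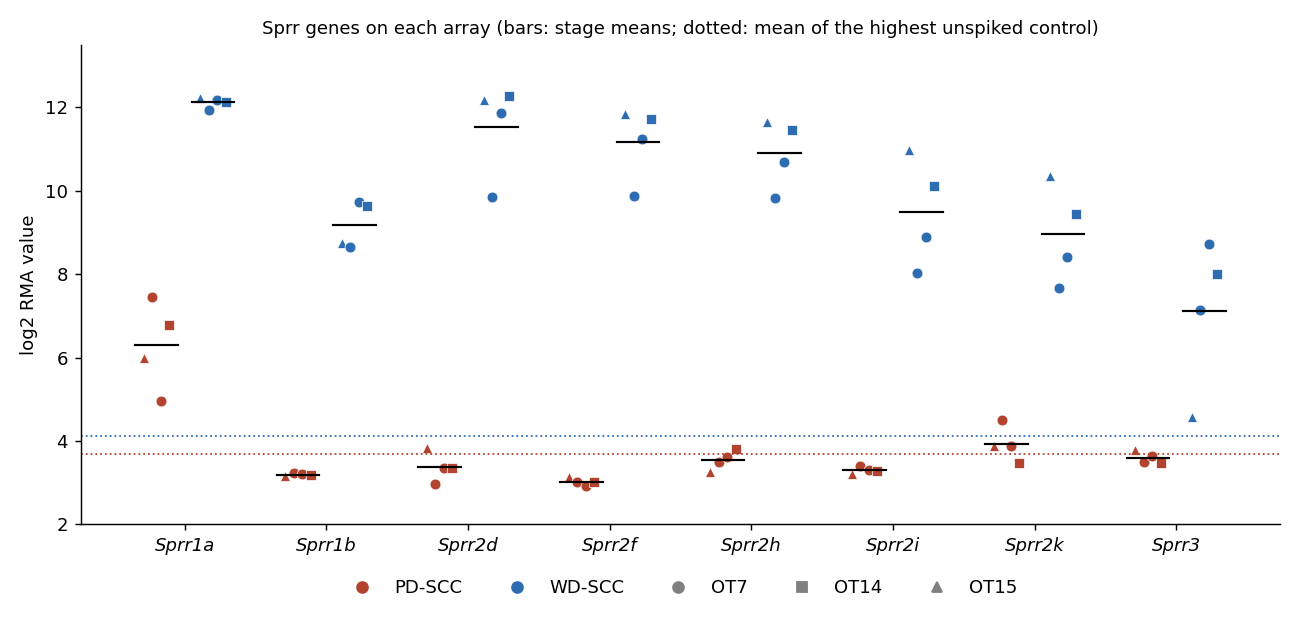
Log2 RMA values of the 8 measured family genes on each array, with PD-SCC (red) left of WD-SCC (blue), lineages by marker shape, stage means as bars and the mean of the highest unspiked control per stage as dotted lines. PD-SCC values lie below WD-SCC values in all 8 genes. Levels of different genes come from different probes and are not comparable.

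The Sprr1 genes encode envelope cross-bridge proteins that are among the classical markers of squamous differentiation. Sprr1a measured 7.45 and 4.95 on the OT7 arrays, 6.77 on OT14 and 6.00 on OT15 in PD-SCC, against 11.94, 12.18, 12.12 and 12.23 in the same order in WD-SCC. It was the family gene that stayed above the control on all 4 PD-SCC arrays, where its values spanned 2.50, while the WD-SCC arrays lay within 0.29 of each other. The difference was -5.83 ± 0.54 (SE), a 56.7-fold lower level in PD-SCC (adjusted p = 0.00488, limma).

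Sprr1b measured 3.22 and 3.20 on the OT7 arrays, 3.19 on OT14 and 3.15 on OT15 in PD-SCC, against 8.65, 9.73, 9.62 and 8.74 in WD-SCC. Every PD-SCC value was under its array's control, so only a bound can be given. Sprr1b was lower in PD-SCC by at least 45.1-fold (measured difference -6.00 ± 0.27 SE, adjusted p = 0.000622, limma). The bound here and below sets the WD-SCC mean against the mean, over PD-SCC arrays, of the higher of the gene and the control. Sprr1a thus remained detectable in PD-SCC in every lineage, and Sprr1b was not above the control in any.

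The Sprr2 genes form the largest group of the cluster and encode the shortest proteins of the family. Sprr2d measured 2.97 and 3.34 on the OT7 arrays, 3.34 on OT14 and 3.84 on OT15 in PD-SCC, against 9.84, 11.85, 12.26 and 12.18 in WD-SCC. The unnumbered OT7 array was the low one in WD-SCC, and in PD-SCC the OT15 array alone was above its control. The difference was -8.16 ± 0.48 (SE, adjusted p = 0.0015, limma), and -7.83 with values under the control raised to it. Its promoter, printed above, holds the 3 motifs once each.

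Sprr2f measured 3.01 and 2.93 on the OT7 arrays, 3.01 on OT14 and 3.14 on OT15 in PD-SCC, against 9.87, 11.24, 11.71 and 11.83 in WD-SCC. No PD-SCC array was above its control. Sprr2f was lower in PD-SCC by at least 177-fold (measured difference -8.14 ± 0.37 SE, adjusted p = 0.000629, limma). With values raised to the control, the lowest WD-SCC array was 6.06 above the highest PD-SCC array.

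Sprr2h measured 3.49 and 3.61 on the OT7 arrays, 3.81 on OT14 and 3.26 on OT15 in PD-SCC, against 9.82, 10.69, 11.46 and 11.64 in WD-SCC. OT14 alone was above its control in PD-SCC, and the difference was -7.36 ± 0.35 (SE, adjusted p = 0.000697, limma), or -7.16 with values raised to the control. Its probe set carries the suffix that marks probes shared by several transcripts, so signal of close Sprr2 relatives cannot be separated from it.

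Sprr2i measured 3.40 and 3.30 on the OT7 arrays, 3.27 on OT14 and 3.20 on OT15 in PD-SCC, against 8.02, 8.88, 10.11 and 10.97 in WD-SCC. It was under the control on each PD-SCC array and at least 55.8-fold lower there (measured difference -6.20 ± 0.52 SE, adjusted p = 0.00375, limma). In WD-SCC the OT7 arrays were the lowest and the OT15 array the highest.

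Sprr2k measured 4.50 and 3.89 on the OT7 arrays, 3.48 on OT14 and 3.87 on OT15 in PD-SCC, against 7.67, 8.40, 9.44 and 10.34 in WD-SCC. It was above the control on 3 of 4 PD-SCC arrays, and OT14 was the exception. The difference was -5.03 ± 0.54 (SE, adjusted p = 0.00662, limma), a 32.6-fold lower level in PD-SCC.

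Sprr3 encodes the member best known from the oesophagus. It measured 3.50 and 3.63 on the OT7 arrays, 3.47 on OT14 and 3.78 on OT15 in PD-SCC, against 7.13, 8.73, 8.0 and 4.58 in WD-SCC. The OT15 WD-SCC array was far under the other WD-SCC arrays and just above its control at 4.37, and 1 PD-SCC array was above its control. The difference was -3.52 ± 0.74 (SE, adjusted p = 0.0359, limma), or -3.42 with values raised to the control.

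The call of Sprr3 depended on the fit. The 19 alternatives hold 17 distinct fits, and the 8 that leave out 1 array hold 6, since leaving out either array of OT14, or either of OT15, removes that lineage from the stage effect. Sprr3 passed the threshold in 10 of the 17, and adjusted p ranged from 0.00887 to 0.306 over them (limma). The 0.00887 came from the fit with values raised to the control. That fit gives dim genes the controls' own difference between stages and called 8325 of all genes lower. The next lowest adjusted p was 0.0141 (limma). Leaving out an OT7 array gave 0.069 without the unnumbered WD-SCC array, 0.0779 without the other WD-SCC array, and 0.105 and 0.104 without the PD-SCC arrays. It was 0.103 without either OT14 array. Without the OT15 WD-SCC array, and so on OT7 and OT14 alone, the difference was -4.42 ± 0.43 (SE, adjusted p = 0.0141, limma). The other 7 genes passed in all 17. On OT7 and OT14 alone, all 8 genes passed, with measured differences between -8.09 and -4.42.

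The 2 measured Sprr genes outside the list fell as well. Sprr2a2 and Sprr2a3 had no probe set of their own, and whether the Sprr2a1 probe set binds their transcripts was not tested. Sprr2a1 measured 4.27 and 4.79 on the OT7 arrays, 3.91 on OT14 and 3.80 on OT15 in PD-SCC, against 7.51, 7.28, 7.98 and 11.71 in WD-SCC (difference -4.43 ± 0.87 SE, adjusted p = 0.0312, limma). Its OT15 WD-SCC array stood well above the other WD-SCC arrays, the opposite of Sprr3. The call was lost in 7 of the 17 fits, which were every fit without an OT7 or an OT14 array, the fit with averaged OT7 arrays and the fit without lineage OT7 (adjusted p between 0.0571 and 0.116 in these). Sprr2j-ps was under the control on each PD-SCC array and at least 34.5-fold lower there (measured difference -5.81 ± 0.65 SE, adjusted p = 0.00711, limma), with WD-SCC arrays between 6.57 and 10.06.

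Within each lineage, all 8 family genes were lower in PD-SCC. The measured differences lay between -7.69 and -3.84 in OT7, between -8.91 and -4.53 in OT14, and between -8.69 and -0.80 in OT15. Where the PD-SCC value is under the control, such a difference is limited by the control and follows the WD-SCC level. In OT15, Sprr3 measured 3.78 in PD-SCC and 4.58 in WD-SCC, a difference of -0.80 ± 0.83 (SE). It was -4.37 ± 0.59 (SE) in OT7 and -4.53 ± 0.83 (SE) in OT14. The SE of OT14 and OT15 rest on the spread of the OT7 arrays, since those lineages had 1 array per stage.

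Sprr2k, which was above the control on both OT7 PD-SCC arrays and on the OT15 one, had differences of -3.84 ± 0.37 within OT7, -5.96 ± 0.52 within OT14 and -6.47 ± 0.52 within OT15 (SE). The OT14 value is limited by the control. For Sprr2i, under the control on all PD-SCC arrays, the measured differences were -5.10, -6.84 and -7.76 in that order of lineages and follow its WD-SCC levels.

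The test of these lineage differences (moderated F over all genes, limma) passed the threshold for 0 of 8 family genes and for 0 of 17097 genes (0%). At an unadjusted p under 0.05 it called 2 of 8 family genes, Sprr2i (adjusted p = 0.325) and Sprr2k (adjusted p = 0.341), against 2043 genes or 11.9% overall. Sprr3 had an adjusted p of 0.419. Among the Sprr genes Sprr2a1 had the smallest unadjusted p, with -2.86 as its difference within OT7, -4.07 within OT14 and -7.91 within OT15 (adjusted p = 0.181, limma F test). A difference between lineages in the size of the fall was thus not shown for any Sprr gene.

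**Figure D3:**
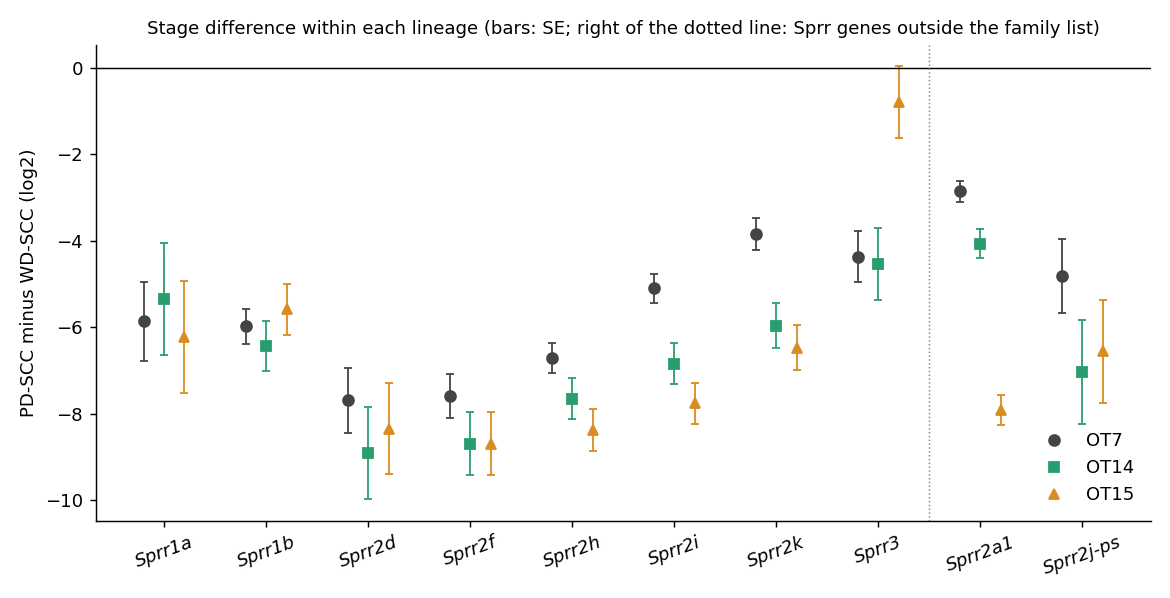
Log2 difference PD-SCC minus WD-SCC within OT7 (circles), OT14 (squares) and OT15 (triangles) for 8 family genes and, right of the dotted line, Sprr2a1 and Sprr2j-ps. Bars are SE. Points are measured values, also where PD-SCC was under the control and the size is limited by it. All points lie below 0, and in OT15 Sprr3 (-0.80) is the point nearest to 0.

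Among the WD-SCC arrays themselves, both OT14 and OT15 were above the OT7 mean for the 5 Sprr2 genes, and OT15 was low for Sprr3. On the OT15 array the Sprr2 genes were above the OT7 mean by 2.52 for Sprr2i, 2.30 for Sprr2k, 1.38 for Sprr2h, 1.33 for Sprr2d and 1.28 for Sprr2f. On the OT14 array they were above it by 1.66 for Sprr2i, 1.41 for Sprr2k, 1.2 for Sprr2h, 1.41 for Sprr2d and 1.15 for Sprr2f. OT15 thus differed from OT14 by -0.08 for Sprr2d, 0.13 for Sprr2f and 0.18 for Sprr2h, but by 0.86 for Sprr2i and 0.90 for Sprr2k. On OT15 against the OT7 mean, Sprr1a differed by 0.17, Sprr1b by -0.45 and Sprr3 by -3.35. Of all genes 50.8% were higher on the OT15 array than on the OT7 mean. The 6 of 8 family genes above it included all 5 Sprr2 genes.

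The 2 OT7 WD-SCC arrays, replicates by label, also differed. The array numbered 2 was above the unnumbered one for 8 of 8 family genes, by a median of 0.98 and by 0.24 for Sprr1a up to 2.02 for Sprr2d. Over all genes the share was 51.4% and the median 0.01. The lower array for the family was thus the same one in each of the 8 genes.

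**Figure D4:**
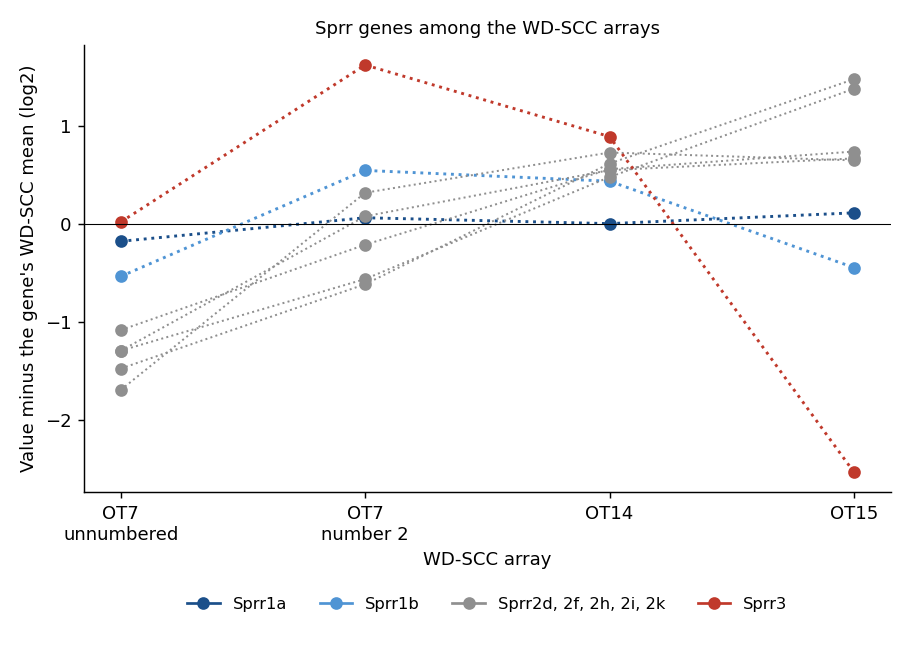
Each family gene's value on the 4 WD-SCC arrays minus its own WD-SCC mean, in log2 units (dark blue Sprr1a, light blue Sprr1b, grey the 5 Sprr2 genes, red Sprr3). Dotted lines join the values of 1 gene and mark no order of arrays. The Sprr1 and Sprr2 genes are lowest on the unnumbered OT7 array, while Sprr3 is lowest on the OT15 array.

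With the stage means removed, Pearson r over the 8 arrays lay between 0.67 and 0.96 for the pairs of Sprr2 family genes. Sprr3 correlated at 0.76 with Sprr1b and between -0.59 and -0.06 with the Sprr2 genes. Sprr1a lay between -0.08 and 0.21 with the other family genes. These values are descriptive: the points share arrays, the Sprr2 values in PD-SCC are at or near the control, and Sprr2 transcripts are alike in sequence, and shared probe binding was not tested.

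Along chromosome 3 the RefSeq order runs from Lor over Prr9, Lelp1 and the Sprr2 genes to Sprr1b, Sprr3, Sprr1a, Sprr4, Ivl and Smcp. Lor, which encodes loricrin, measured 4.42 and 4.20 on OT7, 4.43 on OT14 and 4.57 on OT15 in PD-SCC, against 7.5, 7.64, 7.64 and 5.38 in WD-SCC (difference -2.64 ± 0.45 SE, adjusted p = 0.0208, limma). Ivl, which encodes involucrin, measured 4.45, 4.58, 4.53 and 4.74 in PD-SCC, against 6.91, 7.20, 7.63 and 5.69 in WD-SCC, in the same order (difference -2.28 ± 0.35 SE, adjusted p = 0.0158, limma). Both had their lowest WD-SCC value on the OT15 array, as Sprr3 did. The Lor probe set carries the suffix of probes shared by several transcripts, as that of Sprr2h does.

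Prr9, a proline-rich gene between Lor and the Sprr2 genes, fell by 3.70 on the log2 scale (adjusted p = 0.00821, limma), and OT15 was its highest WD-SCC array at 8.79. Lelp1 differed by -0.13 (adjusted p = 0.577) and Smcp, a sperm gene under the control on every array, by -0.33 (adjusted p = 0.0755, limma). Leaving out 1 array kept Prr9 past the threshold in 6 of 6 distinct fits, Ivl in 3 and Lor in 1.

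**Figure D5:**
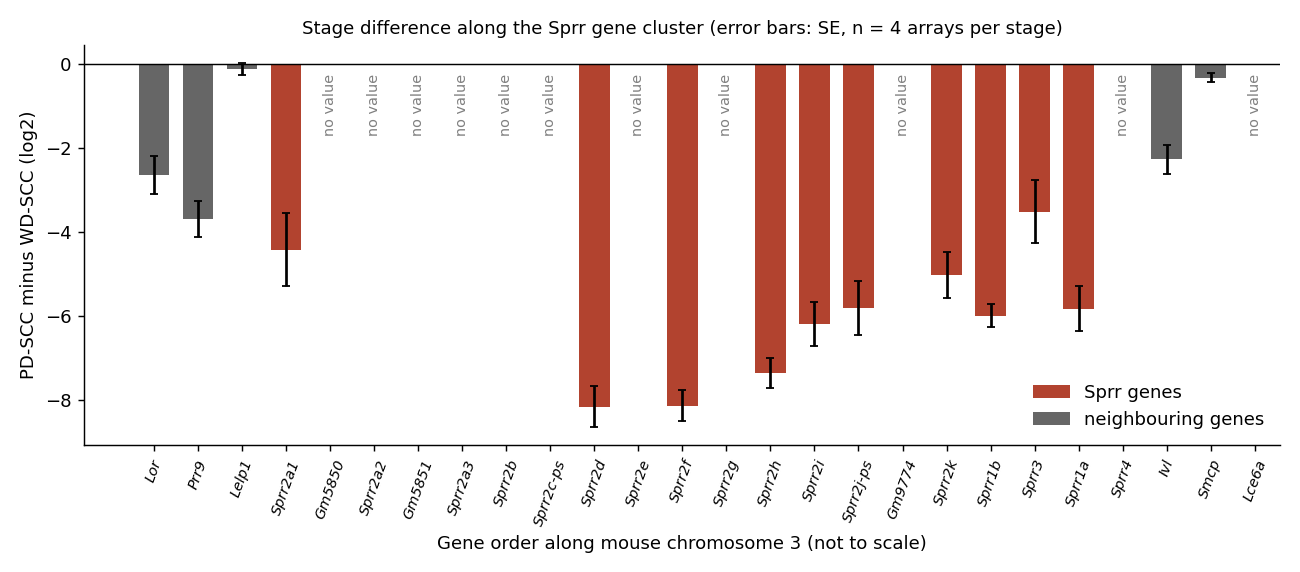
Log2 difference PD-SCC minus WD-SCC (bars, with SE) in gene order along the Sprr cluster of mouse chromosome 3, not to scale, with Sprr genes in red and neighbours in grey. The measured Sprr genes lie between -8.16 and -3.52, Lelp1 and Smcp near 0, and genes without a probe set of their own are marked as having no value.

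Other genes of the envelope and of further groups were read from lists. Over all genes, 4.81% fell and 7.78% rose. Of 23 measured envelope genes of the same complex 9 fell and 0 rose, with a median of -1.48 (-1.54 with values raised to the control). In PD-SCC the level of Lce3a, of the late cornified envelope genes, was lower by at least 297-fold (adjusted p = 9.95e-05, limma), and Lce3c fell by 5.88 and Lce3b fell by 6.01 on the log2 scale, both from probe sets that can bind relatives. Of the list, 15 genes were under the control on all PD-SCC arrays, and 4 of these, Flg, Hrnr, Tchhl1 and Lce1g, on all WD-SCC arrays too.

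Of 15 measured genes that crosslink or scaffold the envelope, 6 fell and 0 rose (median -2.44, or -2.34 with values raised to the control). These were Tgm1, the transglutaminase of the envelope, its scaffold genes Ppl, Evpl and Dsp, the protease inhibitor gene Csta1, and Cdsn, which encodes corneodesmosin. Dsp, which encodes desmoplakin, fell by 7.49 (SE 0.17, adjusted p = 9.21e-05), Cdsn fell by 6.72 (adjusted p = 0.000585, limma) and Csta1 was at least 18.7-fold lower. The other 9 did not pass the threshold.

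Of 14 measured keratins 5 fell and 0 rose, with a median of -0.61. These were the basal keratins Krt5 and Krt14 and the stress keratins Krt6a, Krt6b and Krt16. Krt5 fell by 7.10 (adjusted p = 9.11e-05) and Krt16, a partner of Krt6 in stressed epidermis, fell by 5.65 (adjusted p = 0.00567, limma). Krt6b was at least 76.1-fold lower, and Krt1 and Krt2, keratins of the layers above the basal one, were under the control on all arrays of both stages.

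Of 40 measured transcription factors of keratinocyte differentiation 14 fell and 2 rose, with a median of -0.57. The share that rose was not above the 7.78% of all genes. The number that fell was between 5 and 14 when 1 array was left out. Grhl3, a factor of barrier formation, fell by 4.50 (adjusted p = 0.00455), and Id2, an inhibitor of helix-loop-helix factors, fell by 1.73 (adjusted p = 0.00471, limma). Rbpj, through which Notch signals reach DNA, rose by 2.46 (adjusted p = 0.00635, limma), and Arnt was the other gene that rose. Trp63, the master factor of stratified epithelia, fell by 3.78 (adjusted p = 0.00704, limma).

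Some factors of the motif families counted in the promoters were looked at with their values in view. These were 7 AP-1, 5 ETS and 2 POU genes, and other ETS and POU genes were not looked at. Of these 5 ETS factors 3 fell, Elf3, Ehf and Ets2, and 0 rose, where 4.81% of all genes fell and 7.78% rose. Ehf measured 3.73 and 4.19 on OT7, 3.69 on OT14 and 3.60 on OT15 in PD-SCC, against 6.98, 9.0, 9.49 and 9.77 in WD-SCC (difference -5.01 ± 0.60 SE, adjusted p = 0.0085, limma). Elf3 measured 3.98, 4.59, 3.79 and 3.74 in PD-SCC, against 6.30, 9.04, 10.01 and 10.61 in WD-SCC (difference -4.97 ± 0.89 SE, adjusted p = 0.0238, limma). Both were lowest in WD-SCC on the unnumbered OT7 array, as the Sprr1 and Sprr2 family genes were. That was not particular to them, since Fos, Fosl2, Jun, Junb and Jund were lowest on that array too, though Fosb and Fosl1 were not. Ehf passed in 6 of 6 distinct fits without 1 array, Elf3 in 2 and Ets2 in 0.

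Of 7 measured AP-1 genes 2 fell and 0 rose, where 4.81% of all genes fell and 7.78% rose. Junb fell by 1.42 (adjusted p = 0.0497) and Jund fell by 0.89 (adjusted p = 0.0401, limma). Junb passed in 2 of the 6 fits without 1 array and Jund in 1. Fos averaged 8.90 ± 1.06 in PD-SCC and 8.90 ± 0.40 in WD-SCC (SD, n = 4 each, adjusted p = 0.995, limma), and Fosl1 averaged 9.67 ± 0.61 in PD-SCC and 9.24 ± 0.63 in WD-SCC (adjusted p = 0.52, limma). All 7 were above the control on the 4 PD-SCC arrays. Of the 2 POU factors looked at, Pou2f3 was under the control on all 8 arrays. Pou3f1 averaged 4.44 ± 0.25 in PD-SCC and 4.72 ± 0.21 in WD-SCC (SD, n = 4 each, adjusted p = 0.256, limma).

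Of 11 keratinocyte markers 9 fell and 0 rose, and their mean level was between 4.6 and 5.27 on PD-SCC arrays and between 7.84 and 8.93 on WD-SCC arrays. Krt14 measured 7.02 and 6.94 on OT7, 4.39 on OT14 and 4.57 on OT15 in PD-SCC, all above the control, against 10.82, 10.54, 11.24 and 10.36 in WD-SCC. Its probe set can bind relatives, so signal of related keratins cannot be separated from it. Cdh1, which encodes E-cadherin, was under the control on each PD-SCC array and at least 4.31-fold lower there (adjusted p = 0.00219, limma). The part of the share of keratinocytes in the Sprr values was not tested.

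Markers of other cells were measured in the same arrays. Haematopoietic markers had a mean level of 3.72 to 4.19 in PD-SCC and 4.45 to 5.19 in WD-SCC. Of 15 measured, 3 fell (Cd68, Fcer1g and Cd74) and 0 rose, and Ptprc, the pan-leukocyte marker, was under the control on all arrays. Without 1 array Cd68 passed in 6 of 6 distinct fits, Fcer1g in 3 and Cd74 in 1. Endothelial and pericyte markers had 3.89 to 4.10 in PD-SCC and 4.21 to 5.94 in WD-SCC. Of 14 measured, 3 fell (Tie1, Cldn5 and Egfl7) and 0 rose, with Tek and Vwf under the control on all arrays. Cldn5 passed in 6 of the 6 fits, Tie1 in 4 and Egfl7 in 1. Fibroblast markers had 6.89 to 7.54 in PD-SCC and 5.68 to 8.75 in WD-SCC. Of 16 measured, Thy1 fell and Fn1 rose, both in 6 of the 6 fits. The fibroblast counts are near the shares over all genes, 4.81% lower and 7.78% higher. The 3 of 15 haematopoietic and 3 of 14 endothelial and pericyte markers that fell are above the first share. Melanocyte, Schwann cell, muscle and adipocyte markers had 3.46 to 3.65 in PD-SCC and 4.02 to 4.08 in WD-SCC. Of 14 measured, 2 fell (Ckm and Fabp4), and 8 were under the control on all arrays. Fabp4 passed in 6 of the 6 fits and Ckm in 1. The part of these cells in the Sprr values was not tested.

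Among 4726 genes whose mean reached 6 or more in 1 of the stages, Tmem40, Cnfn, Psca, Dgat2 and Cdsn had profiles most like the family's mean profile. Tmem40, a transmembrane protein gene, came first with a Pearson r of 0.9997 over 8 arrays, and 0.98 with the stage means removed. Cnfn, which encodes the envelope protein cornifelin, followed with 0.9987 and 0.98. Psca, a cell surface protein gene, had 0.9986 and 0.91, Dgat2, a triglyceride synthesis enzyme gene, 0.9985 and 0.93, and Cdsn 0.9984 and 0.91. Tmem40 averaged 3.75 ± 0.11 in PD-SCC and 11.07 ± 0.70 in WD-SCC (SD, n = 4 each), and Cnfn averaged 4.17 ± 0.08 in PD-SCC and 10.62 ± 0.89 in WD-SCC. The Tmem40 probe set carries the suffix of probes shared by several transcripts, as that of Sprr2h does. The first r of each gene includes the step between stages. All 5 genes passed the filter through WD-SCC alone, since their PD-SCC means lay between 3.73 and 4.32. They were picked by the first r, so neither r is separate support for a likeness to the family.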

How the data were processed

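The authors deposited log2 values of 45141 probe sets on 8 arrays, made with affy and RMA per the submitters' processing notes. RMA corrects background, normalises quantiles and combines probes. Tool versions, chip definition and the set of arrays normalised as one are not given in the sources. That the scale is log2 follows from the range of values (2.4 to 13.24). Quantile normalisation forces array distributions together, so differences are relative to the other genes.

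Gene names came from the platform annotation, and RefSeq gave current symbols by Entrez number (99.1% of genes matched). Probe sets with 1 symbol numbered 28898, with several 551 (1 of them of Sprr genes, not used) and with none 15588. Each gene took its probe set with the highest mean, which left 17097 genes. The stage effect was fitted over all genes with limma 3.58.1 in R 4.3.3 (lmFit, eBayes, two-sided, lineage as a fixed block, 4 residual degrees of freedom, Benjamini-Hochberg, threshold 0.05). The lineage difference was a moderated F test in a fit giving each lineage and stage its own coefficient, with 2 residual degrees of freedom from OT7. Arrays were paired by lineage, which the design text gives. Both fits were tested on simulated data.

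The family genes and the gene lists were chosen with earlier results of these data known. Named genes are the family, other Sprr genes, the genes of smallest p in each list (3 at most) and the 5 genes most like the family. The cluster neighbours, Flg, Hrnr, Tchhl1, Lce1g, the other genes past the threshold in a list, Cdh1, Krt1, Krt2, Itga6, Cd34, and the AP-1, ETS and POU factors were named for their position, role or values. Promoter windows were aligned globally with Biopython 1.88 (match 1, mismatch -1, gap -3, extension -1), and plots used Python 3.11.15 and matplotlib 3.10.9. Alternatives were no block, a random block, averaged OT7 arrays, a dim filter (above the control on 3 arrays), the mean of or all probe sets, values raised to the control, cyclic loess, 75th percentile scaling, a trended and robust prior, no OT7, and each array left out. Leaving out arrays for the lists was added after seeing the data.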

Additional observations from a re-analysis of the deposited data

Results flagged for a closer look

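Sprr2d on the unnumbered OT7 WD-SCC array, at 9.84, lay far from the other 3 WD-SCC arrays (11.85 to 12.26). Without that array the stage difference was -8.65 (adjusted p = 0.000147, limma). Sprr2a1 on the OT15 WD-SCC array, at 11.71, lay far above the other 3 (7.28 to 7.98), and without that array, and so on OT7 and OT14 alone, its difference was -3.27 (adjusted p = 0.0141, limma). The gap to the nearest array, over the whole range, was 0.835 for Sprr2d and 0.841 for Sprr2a1. Groups of 4 arrays tested this way numbered 20, and chance flags about 1 in 20.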

How the results depend on the processing

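No Sprr gene changed direction in any of 19 alternatives (17 distinct fits), and 7 of 8 family genes passed the threshold in all of them. The family count was 8 or 7, with Sprr3 as the gene lost. With no replicate block (lineage left out) 8 of 8 family genes passed, and 874 of all genes fell and 1249 rose, so the pairing changed no family call. The list of transcription factors then had 1 gene that rose. With averaged OT7 arrays 199 of all genes fell and 202 rose, and without lineage OT7 194 fell and 52 rose, with fewer arrays in both. Cyclic loess gave 794 genes that rose, and testing all probe sets 2010. Scaling to the 75th percentile moved the median of all genes to -0.21. Raising values to the control gave 8325 that fell and 2186 that rose, because dim genes then take the controls' own difference between stages. Leaving out 1 array (6 distinct fits) gave 338 to 731 that fell and 548 to 958 that rose. With dim genes left out 2 fibroblast markers rose. The trended and robust prior gave 14 genes with a lineage difference, no Sprr gene among them. For the causes of the other changes, the cause was not tested.

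Leaving out 1 array changed list counts too: 6 to 8 envelope genes of the complex fell, 6 or 7 crosslinking and scaffold genes, 7 to 9 keratinocyte markers, 1 to 4 haematopoietic and 1 to 5 endothelial markers, and 1 to 3 fibroblast markers rose. In PD-SCC signal under the control limits Sprr1b, Sprr2f and Sprr2i to bounds, and Sprr2d, Sprr2h and Sprr3 were above it on 1 of 4 arrays, so the size of their differences is limited too, and 4 arrays per stage limit the precision.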
